A study of Mus musculus with 12 samples.

Results

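The genes of the major histocompatibility complex (MHC) and of antigen processing were followed through cultured mouse stromal cells. Members were the rows of the count table whose symbol starts with H2- or is B2m, Tap1, Tap2, Tapbp, Psmb8, Psmb9, Psmb10, Psme1, Psme2, Nlrc5, Ciita, Cd74 or Erap1, which gave 58 of 53819 entries. By symbol, 33 were class I chains, including the light chain B2m, 14 belonged to class II, 5 to class I peptide transport, loading and regulation, 5 to the immunoproteasome and its activator, and 1, H2-Ke6, to none of these. Symbols with -ps, such as the tested H2-T-ps, are pseudogenes by name and were counted among the class I chains. Of the 58 members, 34 passed the low-count filter and were tested: 15 class I chains, 9 of class II and all 10 of the processing genes. A gene read in few groups passed the filter through those groups, so counts and medians over tested members are descriptions.

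Samples came from WT mice, and no other allele or agent is named in the labels. The 4 groups held 3 bulk RNA-seq libraries each. BM sorted cells were marrow cells of hind limbs and pelvis grown on collagen I for 1 passage and then flow-sorted for Sca-1+ and CD51+ cells lacking F4/80, Ly6C, CD45 and CD31. BM nonsorted cells were the same kind of passaged culture used without the sort. BAC depleted cells were bone-associated cells freed from hind limb bone fragments by collagenase I and then cleared of CD45+/Ly6C+/F4/80+ cells with magnetic beads. BAC nondepleted cells were the collagenase preparation used without that step. The medium was alpha MEM with serum and without ascorbic acid, under hypoxia. Age, the culture time of bone-associated cells and whether numbered libraries came from separate animals or cultures remain unstated in the sources used here. P-values therefore set the differences between groups against the spread of these samples only. That spread may be technical, except that BAC depleted library 1 was of the other sex from BAC depleted libraries 2 and 3.

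Class I molecules carry peptides of the cell's own proteins to CD8 T cells: the immunoproteasome cuts them, the Tap1 and Tap2 transporter moves them into the endoplasmic reticulum, and a heavy chain such as H2-K1 or H2-D1 binds them together with B2m. Nearly all nucleated cells make class I. Class II molecules, pairs of an alpha and a beta chain such as H2-Aa with H2-Ab1, are a mark of professional antigen presenting cells, where the invariant chain Cd74 escorts them to endosomes, H2-DM exchanges the invariant chain fragment for peptide and H2-O restrains H2-DM. Nlrc5 and Ciita are the transactivators of class I and class II genes, and interferon gamma induces both.

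Class I and class II promoters share an X and Y box module, through which Nlrc5 and Ciita act, and class I promoters are known to carry an enhancer A and an interferon element as well. The promoters of 6 members on which the results turn are shown: a pair of classical class I heavy chains, the class II chains H2-Aa and H2-Eb1, and the near copies H2-DMb1 and H2-DMb2, of which only H2-DMb2 was called in any comparison. Each is the stretch of 250 bases before the gene start, 5′ to 3′ on the gene's strand, from RefSeq on build GRCm38.p6, which is not the build used for the counts. Capitals mark matches on either strand to an enhancer A core (GGGNTTCCC), an interferon element core (GAANNGAAA), a Y box core (CCAAT) and an X box core (AACNGATG). H2-K1 lies at chr17:34000348-34000597 (minus strand), H2-D1 at chr17:35262844-35263093 (plus strand), H2-Aa at chr17:34287824-34288073 (minus strand), H2-Eb1 at chr17:34305617-34305866 (plus strand), H2-DMb1 at chr17:34152941-34153190 (plus strand) and H2-DMb2 at chr17:34144999-34145248 (plus strand).
H2-K1: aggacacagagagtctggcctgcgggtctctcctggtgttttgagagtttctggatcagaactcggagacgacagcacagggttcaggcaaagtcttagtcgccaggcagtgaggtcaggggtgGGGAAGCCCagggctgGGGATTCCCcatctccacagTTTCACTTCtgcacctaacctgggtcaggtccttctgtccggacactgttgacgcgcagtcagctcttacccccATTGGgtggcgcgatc
H2-D1: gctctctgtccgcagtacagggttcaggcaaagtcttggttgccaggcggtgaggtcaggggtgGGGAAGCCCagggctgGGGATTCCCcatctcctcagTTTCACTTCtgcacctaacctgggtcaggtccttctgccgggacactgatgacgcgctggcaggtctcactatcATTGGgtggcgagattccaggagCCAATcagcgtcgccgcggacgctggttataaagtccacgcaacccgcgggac
H2-Aa: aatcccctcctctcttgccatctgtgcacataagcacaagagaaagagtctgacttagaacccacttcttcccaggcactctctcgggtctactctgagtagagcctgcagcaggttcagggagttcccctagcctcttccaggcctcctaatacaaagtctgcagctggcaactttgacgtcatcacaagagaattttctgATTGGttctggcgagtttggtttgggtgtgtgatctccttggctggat
H2-Eb1: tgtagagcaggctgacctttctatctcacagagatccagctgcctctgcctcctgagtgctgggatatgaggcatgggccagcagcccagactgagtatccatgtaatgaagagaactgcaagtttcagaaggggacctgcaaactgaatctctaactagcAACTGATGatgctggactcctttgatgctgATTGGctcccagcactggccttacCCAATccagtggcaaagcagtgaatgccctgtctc
H2-DMb1: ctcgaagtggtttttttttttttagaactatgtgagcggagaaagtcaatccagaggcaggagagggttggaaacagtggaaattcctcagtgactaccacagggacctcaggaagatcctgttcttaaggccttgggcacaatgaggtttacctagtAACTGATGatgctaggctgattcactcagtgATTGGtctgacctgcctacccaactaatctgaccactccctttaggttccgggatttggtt
H2-DMb2: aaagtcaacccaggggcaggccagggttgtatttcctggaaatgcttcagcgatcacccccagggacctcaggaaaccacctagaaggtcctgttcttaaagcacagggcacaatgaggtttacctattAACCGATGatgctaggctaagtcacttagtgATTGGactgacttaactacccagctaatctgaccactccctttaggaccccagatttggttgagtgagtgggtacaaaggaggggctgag

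H2-K1 and H2-D1 each held a pair of enhancer A cores followed by an interferon element core and at least 1 Y box core, and no X box core. The order ran from -126 to -12 before the gene start in H2-K1 and from -186 to -49 in H2-D1. H2-Eb1, H2-DMb1 and H2-DMb2 held an X box core upstream of a Y box core and neither class I element, and H2-Aa held a Y box core alone. The table had an entry for 41 of the 58 members. Among tested members with an entry, the enhancer A core was in 4 of 11 class I chains, 0 of 6 class II genes and 0 of 8 processing genes, against 1.55% of 32851 promoters of the same length. An interferon element core was in 6 of these 11 class I chains, 0 of 6 class II genes and 0 of 8 processing genes, against 6.31% of all promoters. An X box core was in 0 of 11 class I chains, 3 of 6 class II genes and 0 of 8 processing genes, against 1.98%, and a Y box core in 9, 5 and 3 of them, against 33.8%. A match describes the letters only, and no matches overlapped in the promoters shown.

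Libraries held 27937709 to 32164725 counts. Members took 0.0930% to 0.134% of counts in BM sorted, 0.125% to 0.140% in BM nonsorted, 0.116% to 0.144% in BAC depleted and 0.190% to 0.363% in BAC nondepleted libraries. Stromal markers (12 genes) summed to 25232 to 54672 CPM, counts scaled to library size, across the 12 libraries, and T cell and neutrophil markers to at most 0.727 CPM. BAC depleted library 1 stood apart, with 43406 counts of Xist and 0 of Ddx3y, against at most 16 counts of Xist in every other library. It was thus of the other sex, and results for the depletion and for the purified comparison are also given without it. The mitochondrial share was 1.82% to 2.62% in BAC depleted and 1.08% to 1.36% in the other libraries.

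Class I transcripts were present in every group, and class II members differed widely in level. H2-Ab1 and H2-DMb1 were at 10.3 CPM or more in every library. H2-DMa ranged from 2.96 to 10.3 CPM over all libraries, and H2-Eb1 from 0.208 to 11.2 CPM. H2-Aa, Cd74, H2-Ob, H2-DMb2 and Ciita were at 1.04 CPM or less in every purified library. H2-K1, a classical class I heavy chain, measured 134, 85.0 and 71.3 CPM in BM sorted, 131, 122 and 127 CPM in BM nonsorted, 77.7, 85.1 and 129 CPM in BAC depleted, and 474, 380 and 297 CPM in BAC nondepleted libraries. Its 3 lower groups overlapped, and the BAC nondepleted libraries all lay above them. H2-D1, the other classical heavy chain, measured 124, 77.6 and 54.5 CPM in BM sorted, 185, 184 and 158 CPM in BM nonsorted, 118, 128 and 128 CPM in BAC depleted, and 739, 585 and 406 CPM in BAC nondepleted libraries. Here BM sorted lay below BM nonsorted without overlap. B2m, the light chain, measured 392, 303 and 296 CPM in BM sorted, 431, 406 and 517 CPM in BM nonsorted, 601, 506 and 588 CPM in BAC depleted, and 1311, 997 and 676 CPM in BAC nondepleted libraries. Every BAC library was above every BM sorted library for B2m, and BAC depleted libraries lay below BAC nondepleted libraries without overlap. BM sorted was lowest in mean for H2-D1 and B2m, and for H2-K1 the BM sorted and BAC depleted means of 96.8 ± 33.0 and 97.3 ± 27.7 CPM (SD, n = 3 each) differed by less than their spread.

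H2-Ab1, the beta chain of the mouse class II molecule I-A, measured 47.5, 31.7 and 27.8 CPM in BM sorted, 19.96, 29.7 and 34.6 CPM in BM nonsorted, 15.0, 34.6 and 36.8 CPM in BAC depleted, and 43.6, 43.6 and 96.6 CPM in BAC nondepleted libraries. The ranges of its first 3 groups overlapped, and BM sorted library 1 reached above 2 of the BAC nondepleted libraries. H2-Aa, the alpha chain with which H2-Ab1 pairs, had 3, 2 and 0 counts in BM sorted, 10, 4 and 8 in BM nonsorted, 0, 0 and 4 in BAC depleted, and 115, 144 and 368 in BAC nondepleted libraries. Cd74 had 31, 21 and 22 counts in BM sorted, 35, 53 and 76 in BM nonsorted, 4, 17 and 16 in BAC depleted, and 675, 422 and 1271 in BAC nondepleted libraries. For H2-Aa and Cd74 the BAC nondepleted libraries stood far above all others. H2-Eb1, the beta chain of I-E, had 43, 59 and 43 counts in BM sorted, 33, 48 and 36 in BM nonsorted, 25, 65 and 5 in BAC depleted, and 97, 112 and 294 in BAC nondepleted libraries, while its alpha chain H2-Ea had 0 counts in all libraries. Ciita had 3, 3 and 4 counts in BM sorted, 3, 9 and 1 in BM nonsorted, 8, 1 and 0 in BAC depleted, and 11, 15 and 19 in BAC nondepleted libraries. Ciita was thus read in single digits outside BAC nondepleted cells, and its BAC depleted counts came mostly from library 1.

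**Figure D1:**
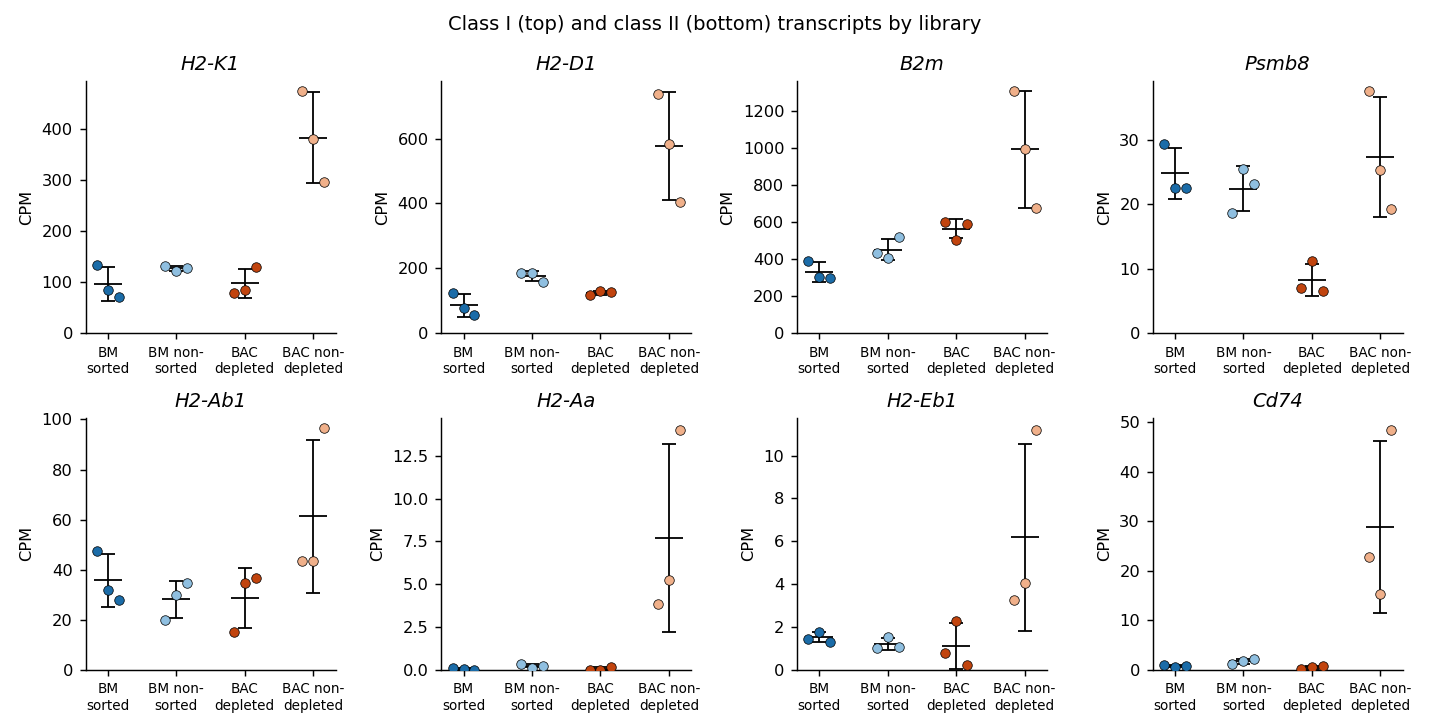
CPM on TMM-scaled library sizes for 4 class I genes (top) and 4 class II genes (bottom), with a point per library and the mean ± SD of 3 libraries in each of the 4 groups. H2-Aa and Cd74 lie near 0 in all groups other than BAC nondepleted, where Cd74 averages 28.8 CPM, while H2-Ab1 averages 28.1 to 61.3 CPM in all groups.

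In sorted marrow cells 2 class II accessory chains were lower than in unsorted cultures, and no other member was called. Of 34 tested members, 0 rose and 2 fell in BM sorted relative to BM nonsorted cells (edgeR's quasi-likelihood test, adjusted p under 0.05 over all genes), where 6.23% of all 15698 tested genes were called, 0.166% higher and 6.06% lower. The called members were both of class II, H2-Ob and H2-DMb2, out of 9 tested. H2-Ob, the beta chain of H2-O, had 0, 1 and 0 counts in BM sorted and 53, 37 and 31 counts in BM nonsorted libraries, a count ratio of 118 in favour of BM nonsorted with a 95% counting interval of 20.8 to 4704 (adjusted p = 0.000215 in edgeR's quasi-likelihood test). H2-DMb2, a beta chain of H2-DM, had 2, 1 and 0 counts in BM sorted and 22, 7 and 12 counts in BM nonsorted libraries, a ratio of 13.3 with an interval of 4.26 to 67.4 (adjusted p = 0.0310). For either gene every BM sorted library lay below every BM nonsorted library, as was the case for 10 of the 34 tested members, beside 16.7% of all tested genes with BM sorted below without overlap. No member lay above without overlap, beside 12.1% of all tested genes, which makes 28.7% in either direction. The H2-DMb2 call was lost without BM sorted library 2 or 3 or BM nonsorted library 1 or 3, up to an adjusted p of 0.139, so that 1 member remained, H2-Ob, which kept its call in every setting in which it was tested.

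None of the 15 class I chains was called in the sort by edgeR, 2 had an unadjusted p under 0.05, and the DESeq2 Wald test called 1. That gene was H2-D1, with 85.4 ± 35.5 CPM in BM sorted and 176 ± 15.2 CPM in BM nonsorted cells (SD, n = 3 each) and a log2 fold change of -1.04 ± 0.28 (SE). Its adjusted p was 0.0625 in edgeR and 0.00875 in DESeq2, and it was called in edgeR without BM sorted library 1 (adjusted p = 0.00835). H2-K1 had a log2 fold change of -0.39 with a 95% interval of -0.98 to 0.20, and B2m one of -0.45 with an interval of -0.95 to 0.05. H2-Ab1 had a log2 fold change of 0.35 with an interval of -0.57 to 1.26. None of the 5 genes of class I loading and of the 5 immunoproteasome genes was called by edgeR or DESeq2, and none had an unadjusted p under 0.05. The median log2 fold change was -0.39 over class I chains and -0.45 over class II, beside 0.00 over all tested genes. Summed macrophage markers (13 genes) were 14.3 to 47.9 CPM in BM sorted and 4435 to 5225 CPM in BM nonsorted libraries. Of these 13 markers, 12 were called lower. Dendritic cell markers (9 genes) summed to 8.96 to 11.01 CPM in BM sorted and 7.20 to 9.54 CPM in BM nonsorted libraries. Zbtb46 made up most of that sum, with means of 8.66 and 6.17 CPM, while Itgax averaged 0.0304 and 1.23 CPM. Only 4 of the 9 were tested, with 0 called higher and 1 lower. The part of macrophages in the fall of H2-Ob and H2-DMb2 was not tested, and in bulk RNA fewer cells of a type and less RNA per cell cannot be told apart.

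Among bone-associated cells, 9 class I chains and 6 class II genes were lower after depletion. Of 34 tested members, 1 rose and 18 fell in BAC depleted relative to BAC nondepleted cells, where 37.3% of all tested genes were called, 17.4% higher and 19.9% lower. Of 15 class I chains 9 fell and 1 rose, 6 of 9 class II genes fell, and so did 2 of 5 loading and regulatory genes and 1 of 5 immunoproteasome genes. The median log2 fold change was -1.17 over class I chains and -2.48 over class II, beside 0.05 over all tested genes. Libraries did not overlap between the groups for 22 of the 34, 2 with BAC depleted above and 20 below, beside 21.4% and 24.9% of all tested genes, or 46.3% in either direction. Without BAC depleted library 1, 1 member rose and 15 fell.

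In the classical class I genes the depletion effect was -2.21 ± 0.29 (SE) for H2-D1 and -1.98 ± 0.27 for H2-K1 on the log2 scale (adjusted p = 0.000289 and 0.000382, edgeR). B2m fell by 0.82 ± 0.23 on the log2 scale, to 565 ± 51.7 CPM in BAC depleted against 995 ± 317 CPM in BAC nondepleted cells (SD, n = 3 each; adjusted p = 0.0172). The B2m call was lost without BAC nondepleted library 1 (adjusted p = 0.0651). Among nonclassical chains, H2-T24 (log2 fold change -2.49 ± 0.28), H2-Q4 (-1.81 ± 0.41), H2-Q5 (-2.95 ± 0.59) and H2-Q7 (-2.64 ± 0.62), which encodes a Qa-2 antigen, fell. H2-T23, which encodes Qa-1, had 45.6 ± 7.41 CPM in BAC depleted and 65.1 ± 12.1 CPM in BAC nondepleted cells and was not called (adjusted p = 0.0885). H2-T22 and H2-M3, of which the second presents formylated peptides, were not called either, with log2 fold changes of -0.29 and -0.22. H2-M5 was the only member called higher: it had 25, 14 and 8 counts in BAC depleted and 1, 0 and 1 counts in BAC nondepleted libraries, a ratio of BAC nondepleted to BAC depleted of 0.0427 with a counting interval of 0.00502 to 0.163 (adjusted p = 0.00129). The calls of H2-K1, H2-D1, H2-Q4, H2-Q5, H2-T24 and H2-M5 held in every setting in which they were tested. The H2-K2 call (log2 fold change -1.17, adjusted p = 0.0468) was lost without any of BAC depleted libraries 2 and 3 and BAC nondepleted libraries 1 and 3, up to an adjusted p of 0.174. The H2-T-ps call (-1.32, adjusted p = 0.0329) was lost without any of BAC depleted library 1 and BAC nondepleted libraries 2 and 3, up to 0.125.

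In class II the depletion effect was uneven. Cd74 fell by 5.97 ± 0.65 on the log2 scale, to 0.465 ± 0.294 CPM in BAC depleted against 28.8 ± 17.4 CPM in BAC nondepleted cells (SD, n = 3 each; adjusted p = 8.16e-05). H2-Aa fell by 7.16 ± 1.08 (adjusted p = 0.000682), with 4 counts over all BAC depleted libraries. H2-Ob had 1, 0 and 0 counts in BAC depleted and 93, 88 and 127 counts in BAC nondepleted libraries, a ratio of 309 in favour of BAC nondepleted with a counting interval of 55.0 to 12230. H2-DMb2 had 0 counts in all BAC depleted libraries and 16, 13 and 23 in BAC nondepleted libraries, at least 17.4-fold lower with the 0 replaced by a floor of 3 counts for the whole group. H2-DMa, the alpha chain of H2-DM, fell by 1.25 ± 0.20, to 3.61 ± 0.686 CPM in BAC depleted against 8.60 ± 1.48 CPM in BAC nondepleted cells. H2-Eb1 fell by 2.48 ± 0.71 (adjusted p = 0.0211), a call lost without BAC depleted library 1 or BAC nondepleted library 3, up to an adjusted p of 0.0837.

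The 3 class II genes without a call differed from one another. H2-DMb1 had 19.0, 16.8 and 26.2 CPM in BAC depleted and 14.7, 15.8 and 14.4 CPM in BAC nondepleted libraries, with a log2 fold change of 0.46 ± 0.22 (adjusted p = 0.124), while its near copy H2-DMb2 was at 0. H2-Ab1 had 28.8 ± 12.01 CPM in BAC depleted and 61.3 ± 30.6 CPM in BAC nondepleted cells, a log2 fold change of -1.09 with a 95% interval of -2.02 to -0.16 (adjusted p = 0.0630 in edgeR and 0.0281 in DESeq2). Ciita had a log2 fold change of -2.35 ± 0.87 (adjusted p = 0.0562), and without BAC depleted library 1, which held 8 of its 9 counts in the group, it was called (log2 fold change -4.56, adjusted p = 0.00889).

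In the depletion 2 of 5 loading and regulatory genes and 1 of 5 immunoproteasome genes were called, beside 37.3% of all tested genes. Tap1, Tap2 and Tapbp, the transporter and its bridge to class I, had log2 fold changes of -0.22, 0.47 and -0.03. Nlrc5 had 2.19, 5.23 and 1.37 CPM in BAC depleted and 13.5, 10.5 and 7.93 CPM in BAC nondepleted libraries and fell by 1.85 ± 0.63 (adjusted p = 0.0424). Erap1, which trims peptides in the endoplasmic reticulum, fell by 0.72 ± 0.21 (adjusted p = 0.0213). Psmb8, a catalytic immunoproteasome subunit, had 7.06, 11.1 and 6.50 CPM in BAC depleted and 37.5, 25.4 and 19.2 CPM in BAC nondepleted libraries and fell by 1.73 ± 0.28 (adjusted p = 0.000912). Its partner subunits Psmb9 and Psmb10 had log2 fold changes of -0.88 and -0.69 and were not called, nor were the activator genes Psme1 and Psme2 at -0.45 and -0.29. The Nlrc5 call was lost without any of 5 of the 6 libraries, all but BAC depleted library 2, up to an adjusted p of 0.114. The Erap1 call was lost without any of BAC depleted library 1 and BAC nondepleted libraries 1 and 2, up to 0.0825. Calls were gained for Psmb10 without BAC depleted library 2 (adjusted p = 0.0101), for Tap2 as higher without BAC nondepleted library 1 (0.0297), and for Psme1, Psme2 and H2-T22 as lower without BAC nondepleted library 3 (0.0186, 0.0257 and 0.0249). Macrophage markers summed to 18.9 to 72.4 CPM in BAC depleted libraries, with C1qa, C1qb, Tyrobp, Msr1, Fcgr1 and Ptprc at 0, and to 11332 to 12494 CPM in BAC nondepleted libraries, and all 13 were called lower. Dendritic cell markers (9 genes) summed to 2.9996 to 4.64 CPM in BAC depleted and 3.59 to 6.72 CPM in BAC nondepleted libraries. In the same order Zbtb46 averaged 3.63 and 1.80 CPM and Itgax 0.0118 and 2.73 CPM. Of 4 dendritic cell markers tested, 1 was called higher and 1 lower. B cell markers (6 genes) summed to 0.106 to 0.191 CPM in BAC depleted and 0.343 to 1.09 CPM in BAC nondepleted libraries. The part of these cell types in the falls was not tested.

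**Figure D2:**
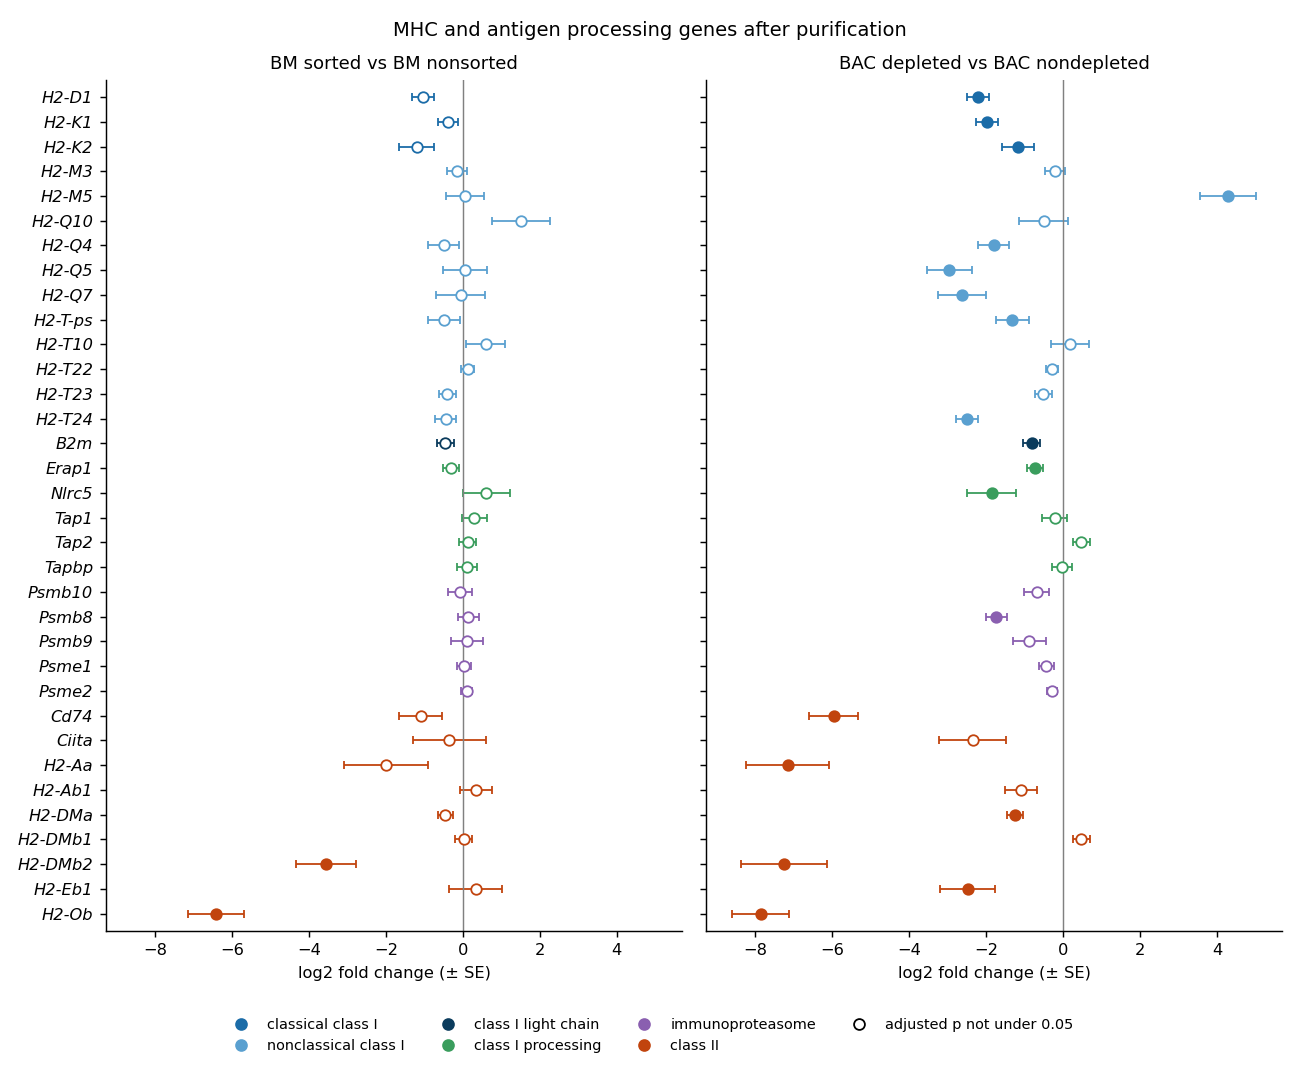
Log2 fold change ± SE of the 34 tested members for BM sorted against BM nonsorted (left) and BAC depleted against BAC nondepleted cells (right), coloured by class, with filled points for an adjusted p under 0.05. Filled points number 2 on the left and 19 on the right. Fitted values of H2-Ob and H2-DMb2 in both panels and of H2-M5 on the right rest on 0 to 3 counts in a group. They are not sizes of effect.

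The difference between both purification effects was tested directly as sorting effect minus depletion effect, for which 8.06% of all genes were called, 5.08% with a positive and 2.99% with a negative difference. Of 34 tested members 5 passed, 4 with a positive and 1 with a negative difference. H2-K1 (1.59 ± 0.38, adjusted p = 0.0316), H2-T24 (2.05 ± 0.38, 0.0133), Psmb8 (1.88 ± 0.38, 0.0190) and Cd74 (4.88 ± 0.82, 0.00927) had the more negative effect in the depletion, in edgeR's quasi-likelihood test. H2-M5 had 23, 19 and 12 counts in BM sorted and 11, 26 and 16 in BM nonsorted libraries, with no call, so that its rise was larger in the depletion (difference -4.23 ± 0.90, adjusted p = 0.0217). That difference rests on 2 counts over the BAC nondepleted libraries and is not a size of effect. H2-D1 (1.17 ± 0.40, adjusted p = 0.0984), H2-Aa (5.16 ± 1.74, 0.0970) and H2-Ab1 (1.44 ± 0.59, 0.157) did not pass. Only the H2-T24 and Cd74 calls held without each of the 12 libraries in turn. Psmb8 was lost without BM nonsorted library 1 (adjusted p = 0.0511), H2-K1 without any of 8 libraries (up to 0.0792) and H2-M5 without any of 5 (up to 0.0579). These libraries were, for H2-K1, BM sorted 1 and 2, all BM nonsorted, BAC depleted 2 and BAC nondepleted 1 and 2, and, for H2-M5, BM sorted 2 and 3, BM nonsorted 2 and BAC nondepleted 1 and 2. Without 5 of the 12 libraries in turn the number of calls was 3 in place of 5: BM sorted 2, BM nonsorted 1 and 2, and BAC nondepleted 1 and 2. Calls were gained for Nlrc5 and H2-Eb1 without BAC depleted library 2 (adjusted p = 0.0496 and 0.0233), for H2-Aa without BAC depleted library 3 (0.0323) and for H2-Q5 without BAC depleted library 1 (0.0345).

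The class II share of MHC counts, counts of H2- class II chains over these and the class I chains with B2m, was 8.85% ± 0.409 in BM sorted and 5.93% ± 0.607 in BM nonsorted libraries (SD, n = 3 each), with no overlap. In the same order the class II chains summed to 56.7 ± 15.1 and 52.3 ± 5.12 CPM, with overlap. The class I chains with B2m summed to 581 ± 134 and 830 ± 50.5 CPM, with no overlap. The share was 5.70% ± 1.31 in BAC depleted and 5.18% ± 3.48 in BAC nondepleted libraries, where the values were 2.76%, 3.62% and 9.18% and library 3 reached above all BAC depleted libraries. Counting only H2-Aa, H2-Ab1 and H2-Eb1 against H2-K1 and H2-D1, it was 17.3% ± 1.43 in BM sorted, 8.92% ± 2.45 in BM nonsorted, 11.6% ± 3.74 in BAC depleted and 7.996% ± 5.90 in BAC nondepleted libraries. The order of the BAC means turned with 1 library: without BAC nondepleted library 1 or 2 the BAC nondepleted mean was 6.40% or 5.97%, above that of BAC depleted cells, and without library 3 it was 3.19%. On the second count the BAC nondepleted mean was 4.604% without library 3. These shares are descriptions with no test, and their intervals cover counting error only.

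The make-up of the class II counts differed as well. H2-Ab1 supplied 95.6% ± 1.16 of H2-Aa, H2-Ab1 and H2-Eb1 counts in BM sorted, 94.97% ± 1.33 in BM nonsorted, 95.9% ± 2.74 in BAC depleted and 82.6% ± 3.35 in BAC nondepleted libraries (SD, n = 3 each). H2-Ab1 shared none of its 50-base words with another gene in the GENCODE M21 transcripts. Cd74 had 0.0220 counts per H2-Ab1 count in BM sorted, 0.0583 in BM nonsorted, 0.0147 in BAC depleted and 0.458 in BAC nondepleted libraries on average. Per kilobase of exon, H2-Ab1 averaged 13.9 CPM in BM sorted, 10.9 in BM nonsorted, 11.2 in BAC depleted and 23.9 in BAC nondepleted cells, and H2-Aa 0.0141, 0.0587, 0.0146 and 2.03 CPM in the same 4 groups. On that per-length scale the level of the beta chain exceeded that of its alpha chain in every group, and it was closest in BAC nondepleted cells. Within class I, H2-D1 had 0.868 ± 0.0898 counts per H2-K1 count in BM sorted and 1.39 ± 0.130 in BM nonsorted libraries, and 1.34 ± 0.302 in BAC depleted and 1.49 ± 0.105 in BAC nondepleted libraries.

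**Figure D3:**
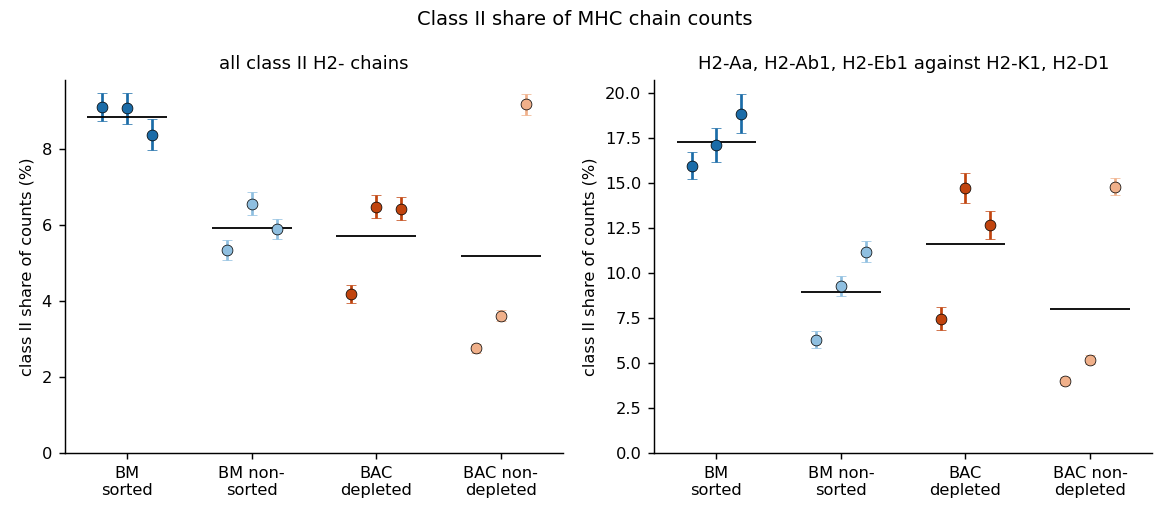
Class II share of MHC chain counts in percent for each library with its 95% binomial interval and the group mean as a line, for all H2- class II chains against class I chains with B2m (left) and for H2-Aa, H2-Ab1 and H2-Eb1 against H2-K1 and H2-D1 (right). The BM sorted libraries lie above the BM nonsorted libraries in both panels, and the 3 BAC nondepleted libraries are spread from 2.76% to 9.18% on the left. Summed class II CPM overlapped between BM sorted and BM nonsorted libraries, and summed class I CPM was lower in BM sorted.

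Between the purified cells of both compartments, BM sorted and BAC depleted, 4 of 34 tested members were higher and 5 lower, or 26.5% of them, where 47.4% of all tested genes were called, 22.9% higher and 24.6% lower. Libraries did not overlap between the groups for 10 of the 34, beside 52.8% of all tested genes. The difference between the shares of members and of all genes was not tested. No class II gene was called of 9, by edgeR or by DESeq2, and 2 had an unadjusted p under 0.05. Those were H2-DMa (log2 fold change 0.47, adjusted p = 0.0741) and H2-DMb1 (-0.52, adjusted p = 0.0778). H2-DMa was called without BAC depleted library 1 (adjusted p = 0.0302), and H2-DMb1 without BM sorted library 1 (0.0307) or BAC depleted library 2 (0.0456). H2-Ab1 had a log2 fold change of 0.31 with an interval of -0.61 to 1.23, Cd74 one of 0.77 with an interval of -0.59 to 2.13, and H2-Ob and H2-DMb2 were at or under the floor of 3 counts in both groups, so no fold is given.

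Called genes of the class I pathway differed in both directions. H2-T23 fell to 21.4, 16.3 and 12.3 CPM in BM sorted, against 38.4, 45.0 and 53.2 CPM in BAC depleted libraries, a log2 fold change of -1.45 ± 0.22 (adjusted p = 0.000612, edgeR). H2-T24 was higher at 3.79, 5.69 and 5.21 CPM in BM sorted and 2.61, 1.41 and 1.62 CPM in BAC depleted libraries (1.37 ± 0.28, adjusted p = 0.00255). Psmb8 was higher at 29.4, 22.5 and 22.5 CPM in BM sorted and 7.06, 11.1 and 6.50 CPM in BAC depleted libraries (1.59 ± 0.28, adjusted p = 0.00116). Psme2, a subunit of the proteasome activator, was higher by 0.53 ± 0.14 on the log2 scale (adjusted p = 0.00931). None of these 4 genes overlapped between both groups, and their calls held in every setting in which they were tested. Lower in BM sorted were B2m (-0.78 ± 0.23, adjusted p = 0.0169), H2-M3 (-0.96 ± 0.27, 0.0138) and Tapbp (-0.73 ± 0.27, 0.0428). H2-K2 had 7, 5 and 6 counts in BM sorted and 27, 8 and 12 counts in BAC depleted libraries and fell by 1.52 ± 0.45 (adjusted p = 0.0190). Nlrc5 had 555, 214 and 113 counts in BM sorted and 69, 148 and 33 counts in BAC depleted libraries, which overlapped, and was called higher (1.69 ± 0.63, adjusted p = 0.0490).

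These last 5 calls were each lost without at least 2 of the 6 libraries, up to an adjusted p of 0.0694 for B2m, 0.0555 for H2-M3, 0.146 for Tapbp, 0.0779 for H2-K2 and 0.273 for Nlrc5. BM sorted library 2 was among those libraries for all 5 genes, BM sorted library 3 for B2m, H2-M3, Tapbp and H2-K2, BM sorted library 1 for Nlrc5, BAC depleted library 1 for Nlrc5, Tapbp and H2-K2, and BAC depleted library 3 for Nlrc5, Tapbp and H2-M3. Calls numbered 11, 4 and 5 without BM sorted libraries 1, 2 and 3, and 7, 11 and 6 without BAC depleted libraries 1, 2 and 3. H2-D1 (log2 fold change -0.55, adjusted p = 0.135) and H2-T10 (-0.89, 0.166) were called lower without BM sorted library 1 (-0.91 and -1.64, adjusted p = 0.0154 and 0.0157), and Psmb10 was called higher without BAC depleted library 2 (adjusted p = 0.0481). Compartment, dissociation, purification method and culture differ together between these groups and cannot be told apart. Macrophage marker sums were 14.3 to 47.9 CPM in BM sorted and 18.9 to 72.4 CPM in BAC depleted libraries. The marker with the highest mean differed between these groups. Fcer1g averaged 15.4 ± 18.4 CPM in BM sorted and 0.175 ± 0.207 CPM in BAC depleted cells, and Lyz2 3.87 ± 0.414 and 27.8 ± 28.7 CPM (SD, n = 3 each). Most of each high mean came from 1 library: Fcer1g had 1085, 244 and 78 counts in BM sorted, and Lyz2 497, 1713 and 171 in BAC depleted libraries. Of the 13 markers, 1 was called higher and 3 lower in BM sorted, beside 22.9% and 24.6% of all tested genes.

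In the unpurified preparations 11 class I chains and 4 class II genes were lower in marrow. Of 34 tested members, 1 was higher and 16 lower in BM nonsorted than in BAC nondepleted cells, where 31.7% of all genes were called, 14.9% higher and 16.8% lower. Libraries did not overlap between the groups for 23 of 34, beside 56% of all genes, and 22 of these had BM nonsorted below, beside 28.7%. Of 15 class I chains 11 fell, with H2-D1 at -1.71 ± 0.29, H2-K1 at -1.60 ± 0.27, H2-T23 at -1.56 ± 0.22 and B2m at -1.14 ± 0.23 on the log2 scale (adjusted p = 0.00241, 0.00249, 0.00126 and 0.00524, edgeR). Of 9 class II genes 4 fell: Cd74 (log2 fold change -4.11 ± 0.58), H2-Aa (-5.08 ± 0.91), H2-Eb1 (-2.36 ± 0.71) and H2-Ob (-1.58 ± 0.46). H2-Ab1 had a log2 fold change of -1.13 with an interval of -2.05 to -0.20 and was not called (adjusted p = 0.0632 in edgeR, 0.0204 in DESeq2). H2-M5 was again the only member called higher, with a ratio of BAC nondepleted to BM nonsorted of 0.0443 and a counting interval of 0.00523 to 0.168. This comparison and the depletion share the BAC nondepleted libraries. Likeness of their values, for H2-M5 and for the members that fell in both, is therefore no second observation. H2-Q10 had 1, 6 and 1 counts in BM nonsorted and 10, 8 and 19 counts in BAC nondepleted libraries and fell by 2.39 ± 0.73 (adjusted p = 0.0308). Of the processing genes, Tapbp fell by 0.87 ± 0.27 (adjusted p = 0.0317), and none of the 5 immunoproteasome genes was called by edgeR or DESeq2, with 1 unadjusted p under 0.05.

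The calls of B2m, H2-K1, H2-D1, H2-Q4, H2-T23, H2-M5, H2-Aa and Cd74 held in every setting in which they were tested. The other 9 were each lost without 3 to 5 of the 6 libraries, up to an adjusted p of 0.126, every library being among them for at least 1 gene. Calls numbered 9 without BM nonsorted library 1 and 10 without BM nonsorted library 2, BM nonsorted library 3 or BAC nondepleted library 1. Erap1, Psme1 and H2-T10 were called lower without BAC nondepleted library 3 (adjusted p = 0.0431, 0.0435 and 0.0499). Class II calls numbered 2 in place of 4 without BM nonsorted library 2 or 3 or BAC nondepleted library 3. Macrophage markers summed to 4435 to 5225 CPM in BM nonsorted and 11332 to 12494 CPM in BAC nondepleted libraries. Cd74 averaged 1.66 ± 0.574 CPM in BM nonsorted and 28.8 ± 17.4 CPM in BAC nondepleted cells (SD, n = 3 each), and the part of macrophages in the difference was not tested.

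**Figure D4:**
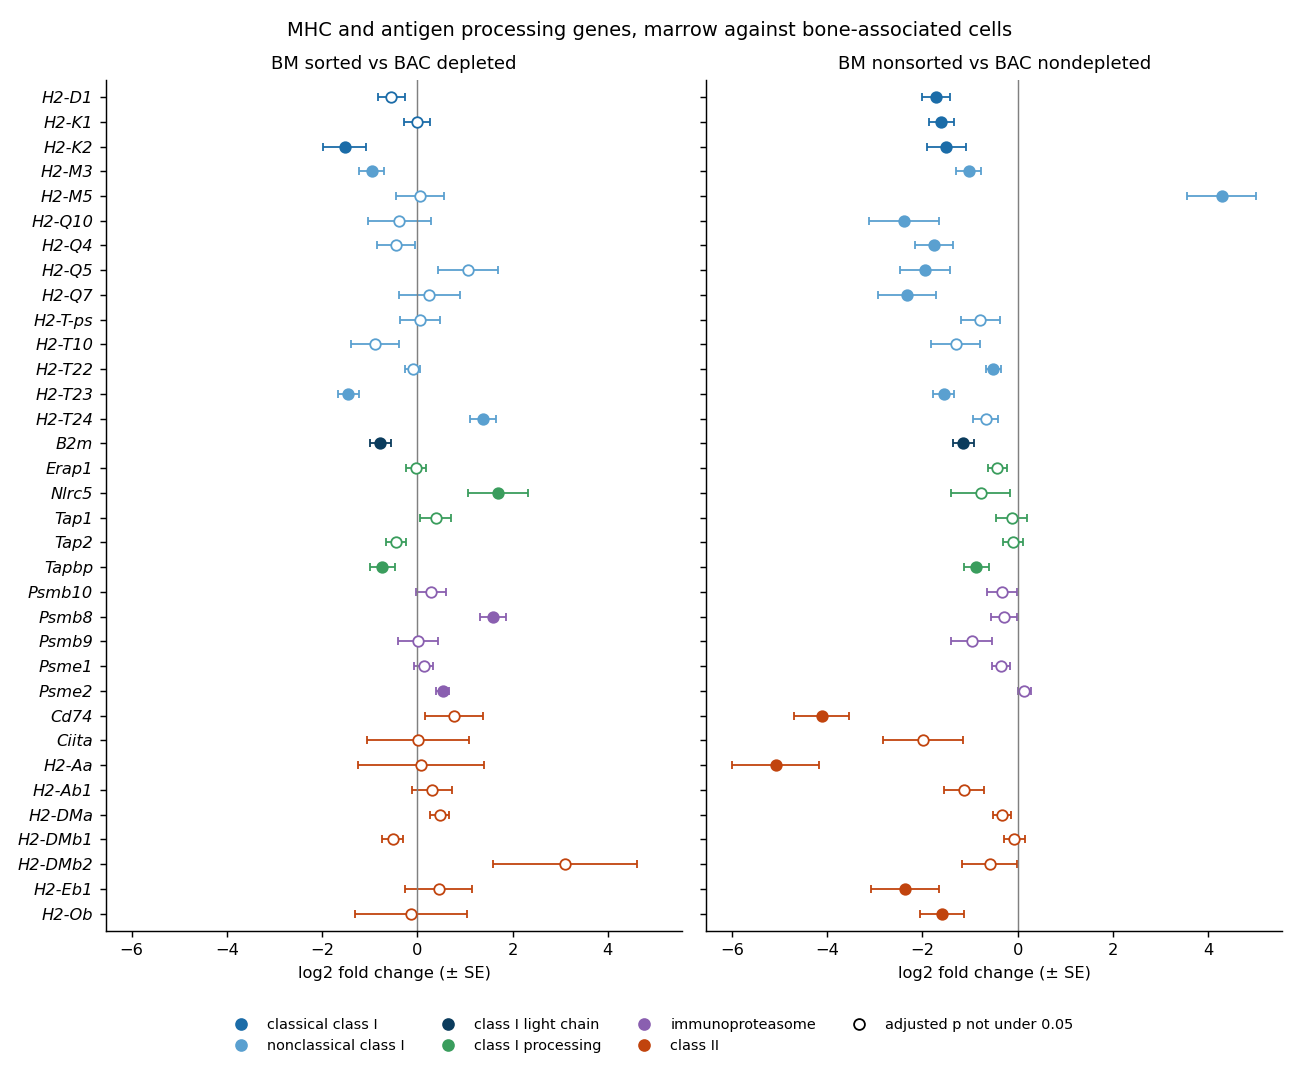
Log2 fold change ± SE of the 34 tested members for BM sorted against BAC depleted (left) and BM nonsorted against BAC nondepleted cells (right), coloured by class, with filled points for an adjusted p under 0.05. Filled class II points number 0 on the left and 4 on the right, all 4 below 0, and fitted values of H2-Ob and H2-DMb2 on the left and of H2-M5 on the right rest on 0 to 3 counts in a group.

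Other genes of the pathway were taken from 5 lists. Their counts stand beside 0.166% of all tested genes higher and 6.06% lower in the sort, 17.4% and 19.9% in the depletion, 22.9% and 24.6% between purified cells, and 14.9% and 16.8% between unpurified cells. Of 16 genes of class I loading and the constitutive proteasome, none was called in the sort by edgeR or DESeq2, with 1 unadjusted p under 0.05, and 2 rose and 4 fell in the depletion, 8 were higher and 3 lower in BM sorted than in BAC depleted cells, and 5 were higher and 1 lower in BM nonsorted than in BAC nondepleted cells. Cd1d1, which presents lipids, had 15.0 ± 4.73 CPM in BAC depleted and 6.21 ± 1.87 CPM in BAC nondepleted cells (log2 fold change 1.28). Of 20 regulators of MHC genes, 3 fell in the sort, and 2 rose and 6 fell in the depletion. Irf8 and Spi1, transcription factors of the myeloid lineage, averaged 0.0944 and 0.00998 CPM in BM sorted against 17.1 and 36.2 CPM in BM nonsorted cells, and 0.132 and 0.0139 CPM in BAC depleted against 35.8 and 79.1 CPM in BAC nondepleted cells. Between purified cells 5 regulators were higher and 4 lower in BM sorted, 9 of 20 where 47.4% of all tested genes were called. Irf1, an activator of class I genes, had 36.5 ± 3.37 CPM in BM sorted and 16.9 ± 2.12 CPM in BAC depleted cells (log2 fold change 1.11). Between unpurified cells 3 regulators were higher and 6 lower in BM nonsorted.

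Of 14 lysosomal class II processing genes, 6 fell and 8 were not called in the sort, beside 6.06% of all tested genes lower, and 11 fell and 3 were not called in the depletion, beside 19.9%. Ctss, the protease that degrades the invariant chain, had 0, 1 and 3 counts in BM sorted and 7358, 5464 and 6381 counts in BM nonsorted libraries. It had 0, 0 and 1 counts in BAC depleted and 17180, 15057 and 13429 counts in BAC nondepleted libraries. Unsorted marrow cultures thus carried 5464 or more counts of Ctss with 4 to 10 counts of H2-Aa. Between purified cells 3 of these genes were higher and 4 lower in BM sorted, and between unpurified cells 1 was higher and 7 lower in BM nonsorted. Of 10 costimulatory and checkpoint ligands 8 were tested; 3 fell in the sort and 4 in the depletion. Cd86, a costimulatory ligand, had 0, 0 and 1 counts in BM sorted and 188, 132 and 240 counts in BM nonsorted libraries. In BAC depleted libraries Cd86 had 0 counts, and in BAC nondepleted libraries it had 347, 281 and 167. Cd80, its relative, had 26.3 ± 4.03 CPM in BM sorted and 10.99 ± 4.50 CPM in BAC depleted cells (log2 fold change 1.26). Of these 8 ligands, 2 were higher and 3 lower in BM sorted than in BAC depleted cells, and 1 was higher and 3 lower in BM nonsorted than in BAC nondepleted cells.

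Of 20 interferon response genes, 9 were lower and 11 not called in BM sorted against BAC depleted cells, beside 24.6% of all tested genes lower. Between unpurified cells 16 were lower in BM nonsorted and 4 not called, beside 16.8%, while 3 fell in the sort and 8 in the depletion, beside 6.06% and 19.9%. Ifit1, an interferon-induced gene, had 3.02 ± 1.39 CPM in BM sorted and 38.0 ± 11.04 CPM in BAC depleted cells. In BAC nondepleted libraries the list summed to 1078, 618 and 314 CPM in libraries 1, 2 and 3. Class I chains summed to 2719, 2130 and 1508 CPM in the same libraries, and class II H2- chains to 77.1, 80.0 and 152 CPM. The library highest in interferon genes was thus highest in class I, and the library lowest in both was highest in class II. Macrophage marker sums in these libraries, 11332, 12494 and 11587 CPM, were closer together. These are 3 libraries with no test, and the part of an interferon response or of other cells in their order was not tested. BAC depleted libraries summed to 352 to 437 CPM of the interferon list beside 77.7 to 129 CPM of H2-K1, while BM sorted libraries summed to 212 to 255 CPM beside 71.3 to 134 CPM of H2-K1.

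**Figure D5:**
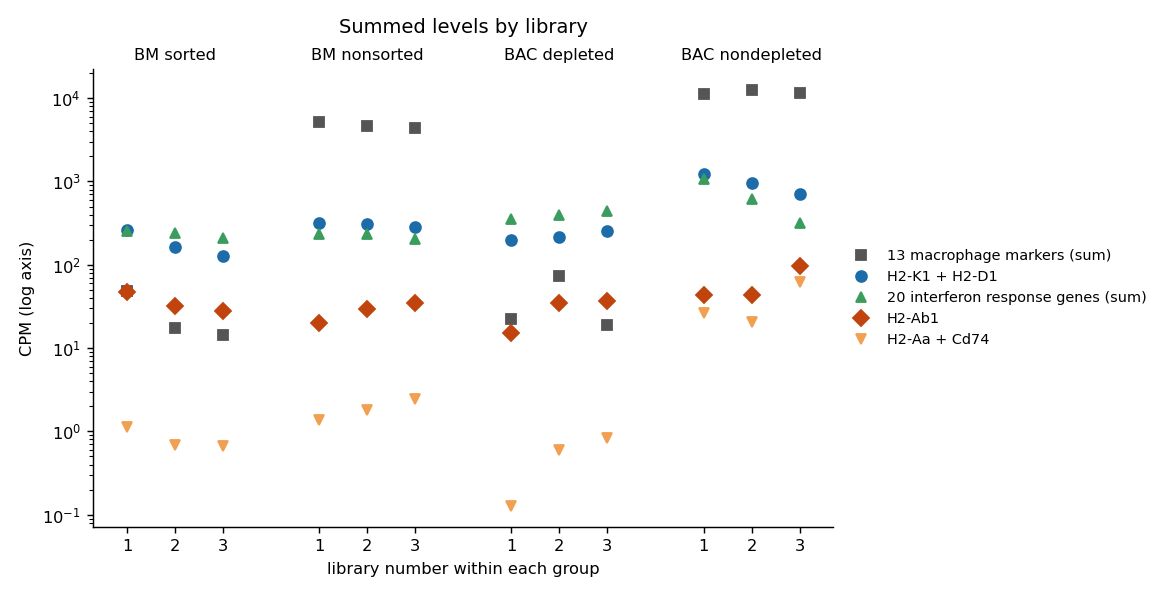
Level per library in CPM on a log axis for the sum of 13 macrophage markers, H2-K1 plus H2-D1, the sum of 20 interferon response genes, H2-Ab1, and H2-Aa plus Cd74, with 3 libraries for each of the 4 groups. H2-Aa plus Cd74 stays at or below 2.46 CPM in BM nonsorted libraries at macrophage sums of 4435 CPM or more, and reaches 20.6 to 62.5 CPM in BAC nondepleted libraries.

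The 24 members below the low-count filter were 18 class I chains, 5 class II genes and H2-Ke6. Of these, 7 had 0 counts in all libraries and the other 17 had at most 19 counts in any library. The untested class II genes H2-Oa, H2-Pa, H2-Pb, H2-Eb2 and H2-Ea had at most 3 counts in a library. Several tested genes share sequence, so reads may have been split or lost between copies. Of 50-base words in GENCODE M21 transcripts, 36.4% of H2-Q5, 34.5% of H2-T22, 32.9% of H2-T10, 29.4% of H2-T-ps, 28.3% of Psme2 and 26.4% of H2-Q7 recurred in another gene, against 12.8% of H2-D1 and 9.63% of H2-K1. H2-DMb1 and H2-DMb2 shared 22.7% and 24.8% of theirs, mostly with each other. Tap1 and Psmb9 overlap on opposite strands, as do B2m with Patl2, Erap1 with Cast and H2-DMa with Brd2, and the strand setting of the counting remains unstated in the sources used here.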

How the data were processed

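RNA was sequenced from 12 libraries, 3 in each of 4 groups. The authors deposited raw read counts per gene. STAR 2.7.9a, Subread 2.0.1 with featureCounts, MultiQC 1.7 and build GRCm39 are named in the submitters' processing notes. Annotation, strand and multi-mapping settings: not given in the sources used here. Entries without a symbol held 0.013% to 0.0297% of a library's counts and were kept, with an alternative without them.

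The fit used edgeR 4.0.16 (R 4.3.3): TMM scaling, filterByExpr on the groups, 15698 genes tested, 1 model with a mean per group over all 12 libraries (common dispersion 0.0969, 8 residual degrees of freedom), robust quasi-likelihood F tests for 5 contrasts and Benjamini-Hochberg adjustment over all genes, called at an adjusted p under 0.05. Levels are CPM on TMM-scaled library sizes. SE is the size of the log2 fold change over the square root of F. Ratios with 1 to 3 counts in a group carry an exact 95% counting interval, and a group at 0 a bound against 3 counts over the group. Both cover counting error only. On simulated counts for BM sorted against BM nonsorted (15361 genes), 96 of 100 genes changed 4-fold and 15 of 100 changed 2-fold were called. The changed genes were drawn from well-read genes, and every gene had the common dispersion. These rates therefore do not cover members with few counts.

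Each result was also computed with the Wald test of DESeq2 1.42.0, with DESeq2 size factors, with upper quartile scaling, with no low-count filter, with at least 5 CPM in at least 3 libraries, with only the groups compared, with a replicate block, and without each library. Promoters came from RefSeq (GRCm38.p6), and gene lengths, overlaps and shared words from GENCODE M21. Every tested member could be named; values by library were given for 9 chosen genes and the 5 called members with the largest changes per comparison, and for each list up to 2 called members in each direction. The values of 1 listed regulator are not reported here. Members and lists were chosen with earlier results of these data known.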

Additional observations from a re-analysis of the deposited data

Results flagged for a closer look

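For 5 members the effect of purification differed between marrow and bone in the direct test of sorting effect minus depletion effect (edgeR's quasi-likelihood test, log2 scale). H2-K1 differed by 1.59, with a log2 fold change of -0.39 in the sort and -1.98 in the depletion. H2-T24 differed by 2.05, with -0.45 and -2.49 in the same pair of contrasts. Psmb8 differed by 1.88, with 0.15 and -1.73. Cd74 differed by 4.88, with -1.09 and -5.97. H2-M5 differed by -4.23, with 0.06 in the sort and 4.29 in the depletion, the last resting on 2 counts in BAC nondepleted cells. Macrophage marker sums in the unpurified groups were 4435 to 5225 CPM in marrow and 11332 to 12494 CPM in bone, and their part in these differences was not tested.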

How the results depend on the processing

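No value of a called member changed sign in any setting tried. Calls of all members, class I chains and class II genes in the sort were 2, 0 and 2. With at least 5 CPM in at least 3 libraries they were 0 overall and 0 in class II, since neither H2-Ob nor H2-DMb2 passed that filter. They were 1 and 1 with only the groups compared, and 1 class I chain was called with the DESeq2 Wald test. In the depletion the counts of 19, 10 and 6 became 10, 5 and 2 with the 5 CPM filter, which left 22 members to test, and 11 and 5 (all members, class I) with only the groups compared. Between unpurified cells 17, 12 and 4 became 9, 7 and 1 with the 5 CPM filter. For the difference of effects 5, 3 and 1 became 11, 5 and 4 with DESeq2. Whether the numbers pair the libraries was not settled, since deviations from a mean of 3 libraries are not independent. Same-numbered deviations correlated at -0.32 to 0.257. They were all above 0 in the depletion (0.0378 to 0.257) and between purified cells (0.0316 to 0.146). They had both signs in the sort and were all below 0 between unpurified cells. BAC depleted library 1, with 0 counts of Ddx3y, differed in sex from BAC nondepleted library 1, with 4111. With the replicate block, 1 class I chain (H2-D1) and 1 class II gene (H2-Ob) were called in the sort, where H2-DMb2 was lost (adjusted p = 0.0631 in edgeR), as were H2-Q10 between unpurified cells (0.0543) and H2-K1 for the difference (log2 value 1.54, 0.0620). Leaving out each library in turn gave 1 to 3 members, 0 to 1 class I chains and 1 to 2 class II genes in the sort; 16 to 19, 8 to 9 and 5 to 6 in the depletion; 4 to 11, 2 to 7 and 0 to 1 between purified cells; 9 to 16, 6 to 11 and 2 to 3 between unpurified cells; and 3 to 6, 1 to 4 and 1 to 2 for the difference. Mean class II shares were 8.72% to 9.08% (BM sorted), 5.62% to 6.23% (BM nonsorted), 5.31% to 6.46% (BAC depleted) and 3.19% to 6.40% (BAC nondepleted) in the same way. Over surface chains only, with all libraries, they were 17.3%, 8.92%, 11.6% and 7.996% in the same 4 groups, and leaving out each library, a setting added after seeing the data, gave 4.604% to 9.99% in BAC nondepleted. The cause of these moves was not tested beyond the number of genes and libraries each setting leaves. Genes under about 1 CPM rest on few counts. In the sort 15 of 100 simulated 2-fold changes in well-read genes were called, and the other comparisons were not simulated.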
